A study of Mus musculus with 48 samples.

Results

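The transcriptome of the frontal cortex of *Cyfip2*+/- mice was compared with that of wild-type (WT) littermates in the first postnatal week (PWK 1), across every gene measured and with the markers of the cell types that the tissue holds. The members are the 8 libraries whose labels read PWK 1 and cortex, 4 *Cyfip2*+/- (labelled heterozygous, HT) and 4 WT, of 48 libraries in the series. The series also sampled the hippocampus, and both regions at PWK 7 and PWK 14, with 4 libraries in each group. All mice were C57BL/6N. Each library was made from the tissue of both hemispheres of a single mouse, and the *Cyfip2*+/- mice served the study as a model of CYFIP2 haploinsufficiency. Brains were collected in the afternoon. Both regions were taken from each mouse, so the PWK 1 hippocampal libraries are not an independent cohort. The labels name no sex, litter or day of dissection. The Y-linked gene *Ddx3y* was read in all 8 libraries, at 1384 to 1550 normalized counts.

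CYFIP2 is a subunit of the WAVE regulatory complex, which takes signals from the small GTPase Rac1 to the Arp2/3 complex and so starts branched actin filaments. The complex shapes growth cones, dendritic spines and the moving processes of microglia. CYFIP2, like its paralog CYFIP1, also binds FMRP and other RNA-binding proteins. In the mouse cortex the first postnatal week falls between the end of neuronal migration and the onset of myelination and sensory-driven activity, so many neuronal and glial genes change quickly at this age.

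Values are given as normalized counts, which are the authors' gene counts divided by a size factor for each library, in the order of replicates 1 to 4 of each group. The sum of normalized counts was 31.6 M to 32.2 M per library. The depth estimated from the spacing of low values was 27.0 M to 32.2 M reads, and it did not separate the genotypes (exact permutation test, two-sided, p = 0.886). Differences are log2 of *Cyfip2*+/- over WT on the scale of log2(normalized count + 1), with the standard error (SE) of the fit by limma. A gene was called changed at a Benjamini-Hochberg adjusted p below 0.05 over the 16612 genes tested. Where a p is named unadjusted, the gene did not pass this test unless the text says so.

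Libraries of both groups were alike. Pearson correlations over all genes tested were 0.987 to 0.990 within groups and 0.983 to 0.990 between them. The first principal component held 23.7% of the variance. *Cyfip2*+/- replicates 1 and 2 lay at its low end with scores of -27.3 and -19.0, and WT replicates 2 and 1 at its high end with 31.5 and 19.1. The other 4 libraries lay between -5.53 and 3.34, so that the genotypes met in the middle. The counts of the gene groups below are therefore also given without *Cyfip2*+/- replicate 1 and WT replicate 2, the libraries at the ends, an alternative chosen after the data were seen.

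*Cyfip2* (chr11:46193850-46312859, minus strand, GRCm38) was the only gene called changed. It stood at 12472, 12484, 13706 and 13780 normalized counts in *Cyfip2*+/- and at 18737, 19736, 17489 and 18276 in WT. Every *Cyfip2*+/- library lay below every WT library. The *Cyfip2*+/- mean was 70.6% of the WT mean, a difference of -0.50 ± 0.05 (limma, Benjamini-Hochberg adjusted p = 0.0096). The exact permutation test on the level gave p = 0.0286, the smallest that 4 against 4 libraries allow. The adjusted p was 0.0610, 0.0602 and 0.0627 without *Cyfip2*+/- replicate 1, *Cyfip2*+/- replicate 2 or WT replicate 4, and 0.128 without both end libraries, at differences between -0.45 and -0.51. The *Cyfip2* difference was -0.50 in the PWK 1 hippocampus, -0.57 in the PWK 7 cortex and -0.59 in the PWK 14 cortex. Its test of PWK 7 against PWK 1 gave -0.07 at an unadjusted p of 0.285 (limma).

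Of the 10 other genes of the WAVE complex, none passed the test. *Abi3*, the ABI subunit of haematopoietic cells and microglia, had the largest difference. Its normalized counts were 39.7, 53.1, 63.0 and 61.1 in *Cyfip2*+/- and 92.0, 116, 85.6 and 122 in WT. The ranges did not touch, and the difference was -0.93 ± 0.19 (limma, adjusted p = 0.147). *Nckap1l*, which takes the place of *Nckap1* in blood cells and microglia, stood at 393, 423, 440 and 415 in *Cyfip2*+/- and at 512, 473, 444 and 445 in WT, again without overlap, with a difference of -0.16 ± 0.07. The paralog *Cyfip1* stood at 2532, 2293, 2425 and 2337 against 2385, 2716, 2451 and 2488, so the groups overlapped, and its difference was -0.07 ± 0.05. The remaining subunits of the neuronal complex lay between -0.16 and 0.03, with -0.08 for *Nckap1*, -0.09 for *Brk1*, -0.07, -0.16 and -0.11 for the WAVE proteins *Wasf1*, *Wasf2* and *Wasf3*, and 0.03 for *Abi2*. The sign of *Abi1* was not set, at 0.01 with all libraries and between -0.03 and 0.06 as each library was left out. Summed over the list with *Cyfip2* included, normalized counts were 54533 to 58993 in *Cyfip2*+/- and 61636 to 66451 in WT. The gap between these sums therefore holds that of *Cyfip2* itself. The count of members lower at an unadjusted p below 0.05 was 3, which were *Cyfip2*, *Abi3* and *Nckap1l*. It was 5 without WT replicate 3 and 2 without both end libraries.

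**Figure D1:**
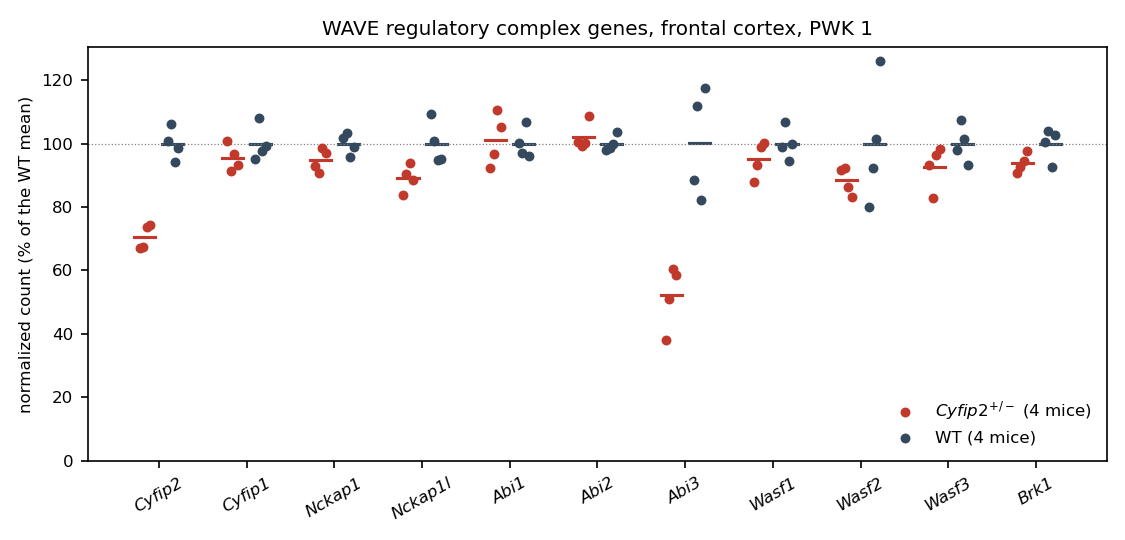
Normalized counts of the 11 WAVE complex genes in each PWK 1 cortex library, as a percent of the WT mean of the gene (points are mice, bars are group means). Only *Cyfip2*, *Abi3* and *Nckap1l* have *Cyfip2*+/- points that all lie below the WT points, and the *Cyfip2* mean sits at 70.6%.

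Across all genes the differences were small and spread in both directions. The 1 called gene is 0.00602% of those tested. The next smallest adjusted p was 0.147, shared by 227 genes. At an unadjusted p below 0.05, 1504 genes (9.05%) were higher and 1287 (7.75%) lower in *Cyfip2*+/-. In 790 genes (4.76%) every *Cyfip2*+/- value lay above every WT value, and in 542 (3.26%) below, 8.02% together. These percentages are the background against which each gene group is read. The lists were chosen with earlier results of these data known, so a list's count beside this background is a description and not a test. Some list members, *Zbtb18* and *Csf1r* among them, are also among the genes of smallest p below. The median difference over all genes was 0.00, and 2908 genes (17.5%) differed by more than 0.25. Without both end libraries the counts at an unadjusted p below 0.05 were 649 higher and 579 lower, of 16368 genes tested. That fit has fewer libraries and lacks those farthest apart, so counts fall for all genes. List counts given without both end libraries are read beside these numbers, not beside the percentages above. Of the 3321 genes with the most GC-rich transcripts 12.1% were higher and 8.58% lower, against 7.62% and 6.72% of the 3321 with the least. Of the 3320 genes with the longest transcripts 9.04% were higher and 10.2% lower, against 8.84% and 5.17% of the 3325 with the shortest. The part of base composition and length in these counts was not tested.

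The protein-coding genes with the smallest p in each direction, none of them called except *Cyfip2*, came from several cell types. Higher in *Cyfip2*+/- were *Zbtb18*, a transcriptional repressor of newborn cortical neurons, *Lhx2*, a LIM homeobox regulator of cortical identity, *Met*, the receptor of hepatocyte growth factor, *Cdh8*, a classical cadherin, *Doc2a*, a calcium sensor of transmitter release, and *Rgs9bp*, which anchors the G-protein regulator RGS9. *Usp43*, *Triqk*, *Exosc8* (a subunit of the RNA exosome) and *Asl* (argininosuccinate lyase of the urea cycle) completed the 10. *Met* stood at 3930, 3608, 3444 and 4010 in *Cyfip2*+/- and at 2993, 2878, 3074 and 3192 in WT, a difference of 0.30 ± 0.06. *Cdh8* stood at 4791, 4111, 4287 and 4420 against 3742, 3497, 3683 and 3665, a difference of 0.27 ± 0.05. *Rgs9bp* had the largest ratio of these, with 218, 201, 188 and 164 against 120, 81.4, 111 and 114 (0.85 ± 0.15). Lower beside *Cyfip2* were *Chpf2*, *Csf1r*, *Arc*, *Rnf6*, *Rasgrp3*, *Clmn*, *P2rx7*, *Tfdp2* and *Il10ra*. *P2rx7*, an ATP-gated channel of glia, was at 225, 181, 229 and 215 in *Cyfip2*+/- and at 360, 307, 289 and 332 in WT (-0.60, SE 0.105). *Rasgrp3*, an exchange factor for Ras and Rap, was at 453, 374, 397 and 400 against 714, 566, 544 and 588 (-0.56 ± 0.09). *Tfdp2*, a partner of E2F factors, was at 520, 483, 591 and 556 against 737, 779, 809 and 660 (-0.47 ± 0.08). In all 20 genes the groups did not overlap, which the rule that chose them required.

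The largest displacement of any cell-type list was that of oligodendrocytes. Of 22 genes of newly formed and myelinating oligodendrocytes tested, 17 were lower at an unadjusted p below 0.05, against 7.75% of all genes, and 0 were higher. The median difference was -0.53, against 0.00 over all genes, and 4 members did not overlap. *Mbp*, which encodes myelin basic protein, stood at 10791, 13948, 20239 and 14790 normalized counts in *Cyfip2*+/- and at 23125, 38507, 22290 and 18837 in WT. The highest *Cyfip2*+/- library exceeded the lowest WT library, and WT replicate 2 stood far above the other 7. The difference was -0.76 ± 0.21 (limma, adjusted p = 0.152). *Mog*, on the outer face of myelin, ranged from 104 to 244 in *Cyfip2*+/- and from 216 to 554 in WT (-1.03 ± 0.29), with the same library on top.

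*Bcas1* and *Gpr17*, which start before compact myelin, differed by less than *Mbp* and *Mog*, with tighter groups. *Bcas1*, a marker of the first premyelinating oligodendrocytes, stood at 1821, 1988, 2301 and 2198 in *Cyfip2*+/- and at 2674, 3102, 2446 and 2707 in WT, without overlap, a difference of -0.40 ± 0.08. *Gpr17*, a receptor of committed precursors, stood at 4739, 5150, 5566 and 5022 against 6659, 6771, 5756 and 5757, also without overlap (-0.28 ± 0.07). *Fa2h*, which makes the hydroxylated fatty acids of myelin lipids, stood at 148, 154, 241 and 227 against 308, 362, 275 and 242 (-0.64 ± 0.18). Of 11 genes of oligodendrocyte precursors, by contrast, 0 were lower and 1 was higher at an unadjusted p below 0.05, near the background. Their median was -0.05. The single one was *Cacng4*, an AMPA receptor auxiliary subunit, at 3640, 3281, 3111 and 3153 against 2619, 2405, 3003 and 2982 (0.26 ± 0.08). The sums of the precursor list overlapped, at 16876 to 18389 in *Cyfip2*+/- and 15187 to 17811 in WT, while those of the oligodendrocyte list overlapped only through *Cyfip2*+/- replicate 3 and WT replicate 4, at 33659 to 54601 and 52020 to 93837. The oligodendrocyte count stayed between 15 and 17 as each library was left out. Without both end libraries it was 13, with a median of -0.30. In bulk tissue, fewer cells of a type and less RNA per cell cannot be told apart, here or in any list below.

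**Figure D2:**
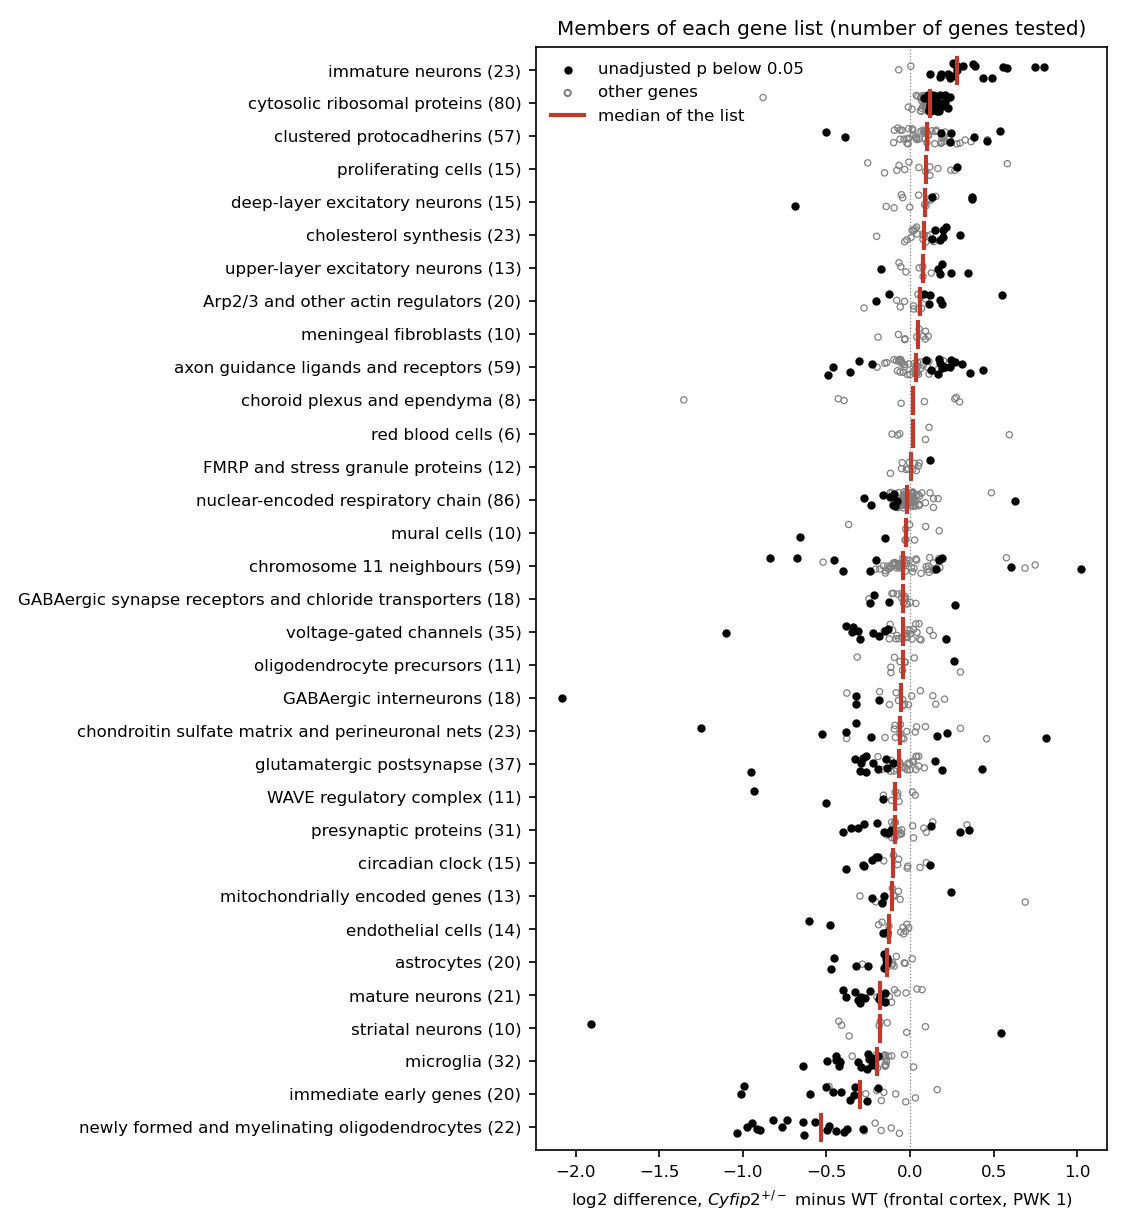
Log2 difference between *Cyfip2*+/- and WT for each tested member of 33 gene lists, ordered by the list median (red bar); filled points have an unadjusted p below 0.05 and open points do not. Immature neurons lie highest, with a median of 0.28, and newly formed and myelinating oligodendrocytes lowest, with a median of -0.53.

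Microglial genes were lower as a group. Microglia are the resident phagocytes of the brain, and in the first postnatal week they still multiply and spread through the cortex. Of 32 markers tested, 15 were lower at an unadjusted p below 0.05 and 0 were higher, 8 did not overlap, and the median difference was -0.20. The full list ran from -0.64 to 0.02. *Csf1r*, the receptor through which microglia receive their survival signals, stood at 1988, 1987, 2484 and 2107 normalized counts in *Cyfip2*+/- and at 3052, 2706, 2808 and 3068 in WT, so that no library overlapped (-0.45 ± 0.07, limma, adjusted p = 0.147). *Il10ra*, the receptor of interleukin 10, stood at 80.2, 84.9, 97.8 and 85.2 against 145, 129, 129 and 141 (-0.64 ± 0.12). *Itgam*, the integrin subunit CD11b, stood at 413, 420, 468 and 477 against 630, 685, 533 and 549 (-0.43 ± 0.09). All 3 had their lowest WT value above their highest *Cyfip2*+/- value. *P2ry12*, the ADP receptor of resting microglia, stood at 948, 1021, 1278 and 1129 against 1513, 1687, 1286 and 1462, where *Cyfip2*+/- replicate 3 came just below WT replicate 3 (-0.45 ± 0.10). *P2ry13*, its neighbour on chromosome 3, differed by -0.43 ± 0.10, and *Tmem119*, which separates microglia from blood macrophages, by -0.49 ± 0.16 with overlap. The count was 10 without WT replicate 1, 18 without WT replicate 3 and 7 without both end libraries, where the median was -0.18. *Abi3* and *Nckap1l* above are also genes of these cells.

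The promoters of *P2ry12* and *Itgam* are shown because both genes are among the microglial members without overlap, and because the microglial factor PU.1 is known to bind purine-rich sites. The 250 bases before each start site are from RefSeq on GRCm38.p6, and capitals mark AGGAAG, searched on both strands (reverse complement CTTCCT). For each gene the first listed promoter that holds the motif is printed, so both show a match by this choice. This motif was chosen after the sequences were seen. *P2ry12* lies at chr3:59262986-59263235 on the minus strand with the motif 52 bases before the start, and *Itgam* at chr7:128062390-128062639 on the plus strand with the motif 83 bases before it.
P2ry12: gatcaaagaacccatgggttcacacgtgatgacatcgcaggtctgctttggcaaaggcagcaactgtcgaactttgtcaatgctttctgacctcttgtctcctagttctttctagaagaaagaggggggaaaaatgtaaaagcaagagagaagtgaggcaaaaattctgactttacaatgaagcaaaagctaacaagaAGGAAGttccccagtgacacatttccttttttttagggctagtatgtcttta
Itgam: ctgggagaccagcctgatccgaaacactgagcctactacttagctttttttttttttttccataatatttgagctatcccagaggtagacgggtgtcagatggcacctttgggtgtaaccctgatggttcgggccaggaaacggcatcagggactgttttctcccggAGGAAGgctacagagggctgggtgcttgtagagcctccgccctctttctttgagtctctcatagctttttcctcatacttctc
Of the 32 microglial genes 23 had an entry, with 28 promoters, of which 18 (64.3%) held the motif, against 29.5% of all 32851 promoters of the same length. The 18 promoters belong to 16 genes. Since the motif was picked with these sequences in view, the shares are set side by side and are not a test. A match describes the letters and not the binding of a factor.

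Astrocyte genes had smaller differences in the same direction. Of 20 tested, 10 were lower at an unadjusted p below 0.05, 0 were higher and 5 did not overlap, with a median of -0.14. S100b, a calcium-binding protein of maturing astrocytes, stood at 640, 694, 874 and 859 in *Cyfip2*+/- and at 1102, 1239, 887 and 978 in WT (-0.46 ± 0.12). *Gjb6*, which encodes the gap junction protein connexin 30, stood at 399, 510, 595 and 587 against 746, 824, 694 and 617 (-0.47 ± 0.13). The glutamate transporter *Slc1a3* stood at 13918, 13855, 14885 and 14874 against 16295, 16242, 15770 and 15763, no overlap but only -0.16 ± 0.04. The bicarbonate transporter *Slc4a4* differed by -0.14 ± 0.04, also without overlap. In S100b and *Gjb6* the groups came close between *Cyfip2*+/- replicates 3 and 4 and WT replicates 3 and 4. The count was 7 without *Cyfip2*+/- replicate 1 or WT replicate 2, and 6 without both.

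All endothelial genes had differences below 0, while mural genes lay on both sides. Of 14 endothelial genes 4 were lower at an unadjusted p below 0.05, 0 were higher, and the median was -0.13. *Slco1a4*, an organic anion carrier of the blood-brain barrier, stood at 347, 318, 380 and 433 in *Cyfip2*+/- and at 571, 622, 433 and 630 in WT (-0.60 ± 0.13), where WT replicate 3 lay barely above *Cyfip2*+/- replicate 4. The antigen *Ly6c1* stood at 210, 198, 301 and 304 against 376, 413, 293 and 314 (-0.48 ± 0.16). The receptors of VEGF differed less, by -0.16 ± 0.06 for *Flt1* and -0.14 ± 0.06 for *Kdr*. The count of 4 was 2 without *Cyfip2*+/- replicate 2, WT replicate 1 or WT replicate 2, and 1 without both end libraries. Of 10 genes of mural cells 2 were lower, *Acta2* (smooth muscle actin, -0.66 ± 0.22) and *Rgs5* (a pericyte G-protein regulator, -0.15 ± 0.07), and the median was -0.02. That count was 1 without *Cyfip2*+/- replicate 1 or 4 or WT replicate 1, 2 or 4, 3 without WT replicate 3 and 0 without both end libraries. No gene of meningeal fibroblasts (10 tested), choroid plexus and ependyma (8) or red blood cells (6) had an unadjusted p below 0.05 in the limma fit, in either direction, and their medians were 0.05, 0.02 and 0.02. Leaving out *Cyfip2*+/- replicate 2 gave 1 lower meningeal gene, and leaving out *Cyfip2*+/- replicate 4 gave 1 lower choroid plexus or ependymal gene. Their sums overlapped, at 16168 to 20709 in *Cyfip2*+/- and 13342 to 21392 in WT for meningeal genes and 279.9 to 355.4 and 281.5 to 376.9 for choroid plexus and ependymal genes, of which *Folr1*, *Otx2* and *Tmem212* did not pass the filter on low values. Of 15 cell-cycle genes 1 was higher, the mitotic kinesin *Kif11* (0.28 ± 0.12), which is near the background, and 0 were higher without both end libraries.

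Striatal genes were read as a sign of tissue from below the cortex. Of 10 tested, 1 was higher and 1 lower at an unadjusted p below 0.05, near the background. WT replicate 3 stood apart, with a summed level of 11834 normalized counts against 6400 to 7434 in the other WT libraries and 5803 to 8648 in *Cyfip2*+/-. Their mean in WT replicate 3 was 0.90 above the mean of all 8 libraries on the log2 scale. The same library had the highest interneuron list, at 0.25. Without it 1 striatal gene was higher and 0 were lower, and without both end libraries 0 were higher or lower.

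Genes of immature neurons were higher. Immature neurons carry tubulins and tubulin-binding proteins that drive the growth of axons and dendrites and fall away as synapses form. Of 23 genes tested, 19 were higher at an unadjusted p below 0.05, against 9.05% of all genes, 0 were lower, 8 did not overlap, and the median difference was 0.28. *Zbtb18* stood at 18922, 18289, 16862 and 17870 normalized counts in *Cyfip2*+/- and at 14893, 14473, 15284 and 15367 in WT (0.26 ± 0.04, limma, adjusted p = 0.147). All 4 *Cyfip2*+/- values lay above all WT values. *Dpysl5*, a collapsin response mediator protein (CRMP) of growth cones, stood at 22705, 22283, 16743 and 18792 against 12837, 10245, 15196 and 15900 (0.58 ± 0.13). *Crmp1*, of the same family, stood at 36206, 36594, 28434 and 31964 against 22196, 19411, 26255 and 27609 (0.49 ± 0.11). In both, replicates 1 and 2 of each group lay far apart, and replicates 3 and 4 close together though still without overlap. *Dpysl2*, the family member that stays on in adult neurons, stood at 8619, 8112, 7925 and 8712 against 6867, 6730, 6762 and 7752 (0.25 ± 0.05).

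The widest spread was in *Dpysl3*, *Tubb2b* and *Dcx*. *Dpysl3* stood at 52530, 51620, 32567 and 36976 in *Cyfip2*+/- and at 23070, 15541, 31287 and 31509 in WT (0.80 ± 0.22), and the beta-tubulin *Tubb2b* at 64891, 64909, 40644 and 43162 against 29046, 20696, 39345 and 39134 (0.75 ± 0.21). *Dcx*, which encodes the microtubule-binding protein doublecortin, stood at 10674, 10052, 7052 and 7441 against 5400, 4202, 8405 and 6300, with WT replicate 3 above *Cyfip2*+/- replicates 3 and 4 (0.56 ± 0.19). Summed over the list, *Cyfip2*+/- libraries held 792620, 785414, 620894 and 663528 normalized counts and WT libraries 529563, 460667, 603107 and 611010. The count of higher members was 16 without *Cyfip2*+/- replicate 2, 20 without WT replicate 3 and 14 without both end libraries, where the median was 0.20.

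Genes of mature neurons were lower. Of 21 tested, 13 were lower at an unadjusted p below 0.05 and 0 higher, 2 did not overlap, and the median was -0.18, within a range of -0.40 to 0.07. *Vamp1*, the vesicle SNARE of fast-firing neurons, stood at 752, 847, 1058 and 1017 in *Cyfip2*+/- and at 1185, 1361, 1183 and 1092 in WT (-0.40 ± 0.11). *Eno2*, the neuronal enolase, stood at 13997, 13951, 14900 and 14749 against 16253, 17723, 15231 and 16061 (-0.18 ± 0.05). Those 2 were without overlap. *Slc17a7*, which encodes the vesicular glutamate transporter VGLUT1, stood at 28054, 28244, 34640 and 34653 against 40336, 44341, 33822 and 37064, with WT replicate 3 below *Cyfip2*+/- replicates 3 and 4 (-0.31 ± 0.09). The potassium channel gene *Kcna1* differed by -0.38 ± 0.11. The count ranged from 10 without *Cyfip2*+/- replicate 2 to 15 without *Cyfip2*+/- replicate 3 or WT replicate 3, and was 4 without both end libraries.

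**Figure D3:**
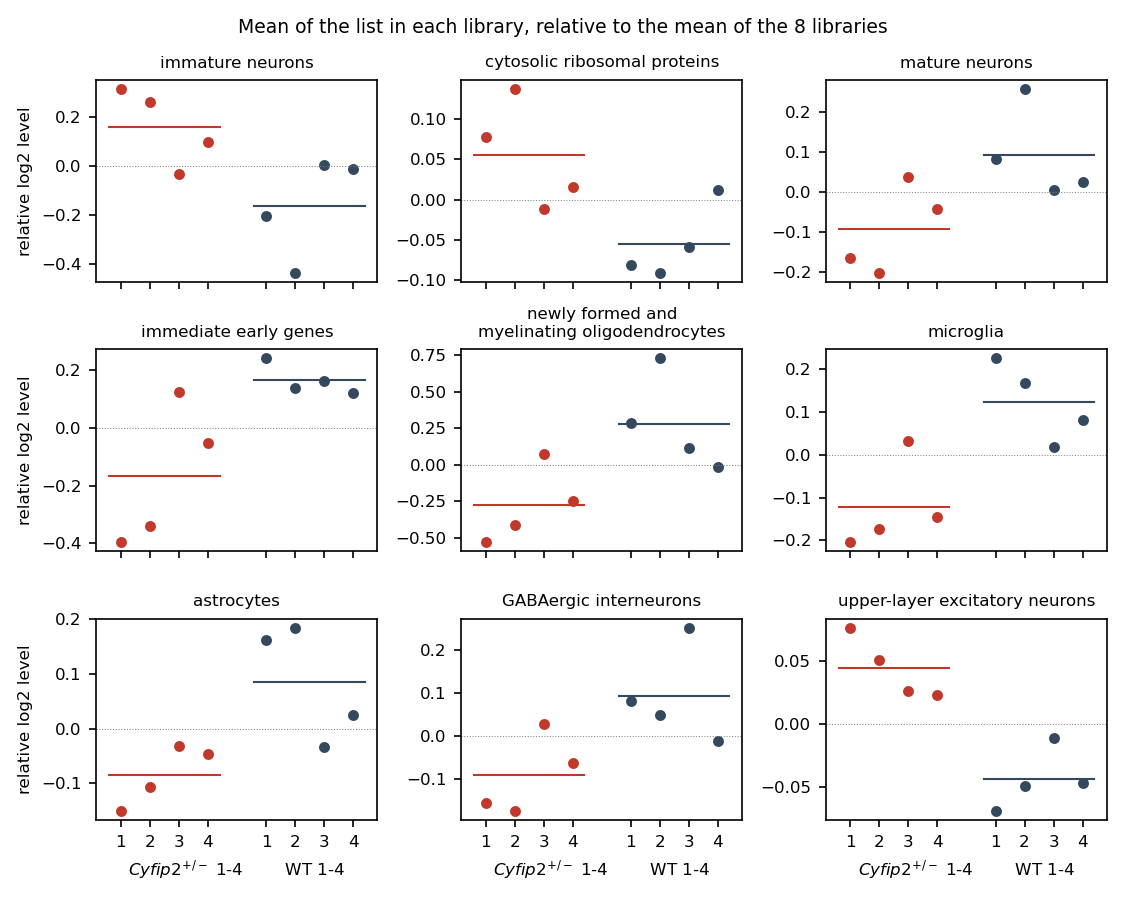
Mean log2 level of 9 gene lists in each library, relative to the mean of the 8 libraries (red, *Cyfip2*+/- replicates 1 to 4; blue, WT replicates 1 to 4; lines are group means). In most lists *Cyfip2*+/- replicates 1 and 2 and WT replicates 1 and 2 lie farthest apart and the other 4 libraries lie close together; the groups do not overlap for upper-layer excitatory neurons.

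Genes of the excitatory layers had smaller medians. Of 13 genes of upper-layer neurons, 5 were higher and 1 lower at an unadjusted p below 0.05, and the same 5 in number did not overlap, against 4.76% of all genes. *Lhx2* stood at 1677, 1697, 1589 and 1664 normalized counts in *Cyfip2*+/- and at 1428, 1409, 1356 and 1402 in WT, both groups tight (0.24 ± 0.04). *Mef2c*, a regulator of synapse number, differed by 0.17 ± 0.04 and the POU factor *Pou3f3* by 0.18 ± 0.05. *Cux2*, the defining upper-layer marker, lay the other way, at 3880, 3346, 3915 and 3633 against 4513, 4506, 3880 and 3779 (-0.17 ± 0.07). The count of 5 was the same or higher without any single library and without both end libraries. Of 15 deep-layer genes 3 were higher, the neurotensin receptor gene *Ntsr1* of layer 6 (0.37 ± 0.12), *Nfe2l3* (0.37 ± 0.15) and *Sox5* (0.13 ± 0.06), and 1 was lower, *Nr4a2* (-0.69 ± 0.22). None of the deep-layer genes was without overlap, and the count of 3 was 1 without *Cyfip2*+/- replicate 1 or WT replicate 2, 5 without WT replicate 3 and 0 without both end libraries.

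Among 18 interneuron genes 4 were lower at an unadjusted p below 0.05 and 0 higher, with a median of -0.06. *Pvalb*, the calcium buffer that fast-spiking basket cells begin to make at this age, was low in all libraries, at 13.3, 10.5, 30.6 and 15.5 in *Cyfip2*+/- and 88.0, 143, 49.4 and 41.6 in WT. The groups did not overlap, at a difference of -2.08 ± 0.41 (limma, adjusted p = 0.147). *Gad2*, a GABA-synthesizing enzyme, stood at 2968, 2809, 3721 and 3465 against 3928, 4161, 4168 and 3888, without overlap (-0.33 ± 0.08), and *Gad1*, the other, differed by -0.18 ± 0.08. The peptide gene *Npy* differed by -0.33 ± 0.11. The lineage factors of these cells gave no member past an unadjusted p of 0.05. The count was 3 to 5 as each library was left out and 2 without both end libraries.

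Immediate early genes, which neurons switch on within minutes of activity, were lower. Of 20 tested, 11 were lower at an unadjusted p below 0.05 and 0 higher, 5 did not overlap, and the median difference was -0.30. *Arc*, which encodes a postsynaptic protein that drives AMPA receptor uptake, stood at 838, 970, 1494 and 1245 in *Cyfip2*+/- and at 2518, 2545, 1911 and 1932 in WT (-0.99 ± 0.16, limma, adjusted p = 0.147). Its *Cyfip2*+/- mean was 51.1% of the WT mean. The AP-1 subunit gene *Fosb* stood at 77.4, 77.1, 185 and 153 against 223, 195, 302 and 215 (-1.01 ± 0.27). *Nr4a1*, an orphan nuclear receptor, stood at 1323, 1385, 1990 and 1737 against 2287, 2206, 2193 and 2052 (-0.46 ± 0.11), and *Junb*, another AP-1 subunit gene, at 719, 795, 954 and 947 against 1157, 1122, 1019 and 1061 (-0.36 ± 0.09). In these 4 genes no *Cyfip2*+/- library reached the lowest WT library. *Fos* itself overlapped, at 394, 406, 807 and 593 against 857, 775, 735 and 823 (-0.60 ± 0.19), because *Cyfip2*+/- replicate 3 lay within the WT range. *Egr1* was alike in all WT libraries, at 6689 to 6773, and stood at 3598, 3786, 6783 and 5559 in *Cyfip2*+/- (-0.50 ± 0.16). The count was 9 without *Cyfip2*+/- replicate 1, *Cyfip2*+/- replicate 2 or WT replicate 1, 15 without *Cyfip2*+/- replicate 3 and 8 without both end libraries.

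The promoters of *Fos*, *Fosb*, *Junb* and *Nr4a1* are printed because these genes are among the members lower at an unadjusted p below 0.05 and because CREB, an activity-dependent factor, is known to bind the motif TGACG. Each is the first listed promoter of its gene that holds the motif, so a match in every printed sequence was fixed by this choice. The windows are the 250 bases before a start site, from RefSeq on GRCm38.p6, and capitals mark TGACG or its reverse complement CGTCA. *Fos* lies at chr12:85473640-85473889 on the plus strand with 2 matches, 129 and 66 bases before the start. *Fosb* lies at chr7:19310046-19310295 on the minus strand with 1 match at 60 bases, and *Junb* at chr8:84978749-84978998 on the minus strand with 1 match at 106 bases. *Nr4a1* lies at chr15:101266596-101266845 on the plus strand with 4 matches, 40 to 233 bases before the start.
Fos: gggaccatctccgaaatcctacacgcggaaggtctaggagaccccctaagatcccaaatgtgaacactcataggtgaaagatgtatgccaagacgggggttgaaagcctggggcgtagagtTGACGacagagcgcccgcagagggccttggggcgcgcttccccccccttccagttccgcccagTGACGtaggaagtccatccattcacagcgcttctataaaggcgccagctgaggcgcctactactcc
Fosb: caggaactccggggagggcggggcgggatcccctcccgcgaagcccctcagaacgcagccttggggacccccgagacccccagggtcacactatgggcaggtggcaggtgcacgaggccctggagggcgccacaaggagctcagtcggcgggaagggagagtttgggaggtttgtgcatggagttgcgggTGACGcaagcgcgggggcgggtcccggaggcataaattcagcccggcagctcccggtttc
Junb: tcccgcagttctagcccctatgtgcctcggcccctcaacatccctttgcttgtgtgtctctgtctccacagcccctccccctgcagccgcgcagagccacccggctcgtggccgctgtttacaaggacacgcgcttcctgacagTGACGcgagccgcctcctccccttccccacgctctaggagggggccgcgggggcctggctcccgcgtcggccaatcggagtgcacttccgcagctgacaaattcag
Nr4a1: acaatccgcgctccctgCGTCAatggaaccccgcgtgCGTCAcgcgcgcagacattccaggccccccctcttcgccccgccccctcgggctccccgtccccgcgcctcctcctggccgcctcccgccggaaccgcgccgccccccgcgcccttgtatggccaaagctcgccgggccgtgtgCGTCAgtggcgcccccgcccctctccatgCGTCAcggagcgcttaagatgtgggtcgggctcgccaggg
Of the 20 immediate early genes 14 had an entry, with 25 promoters, of which 14 (56%) held the motif, against 17.8% of all 32851 promoters of this length. The promoters with the motif belong to 12 genes. The matches describe these windows and say nothing of binding in these mice.

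**Figure D4:**
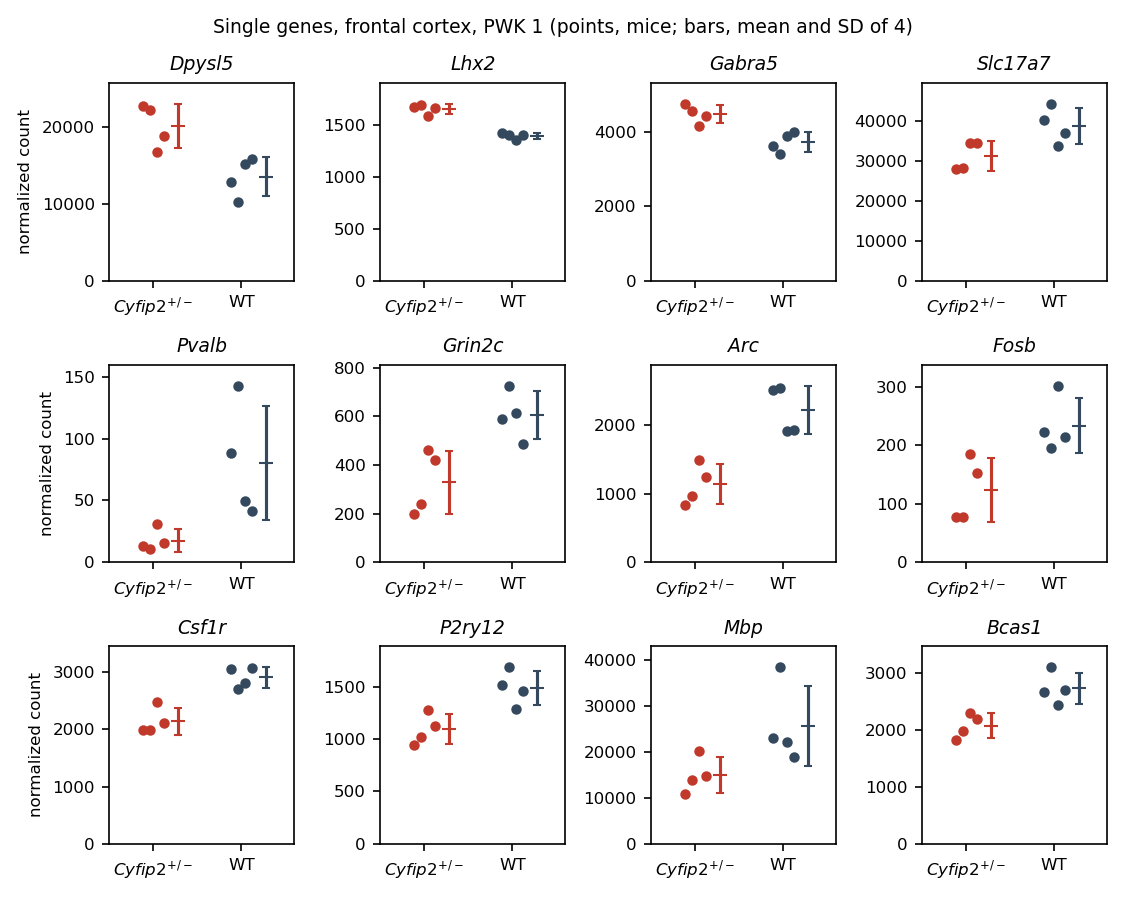
Normalized counts of 12 genes in each PWK 1 cortex library (points are mice; bars are mean and SD of 4). *Dpysl5*, *Lhx2* and *Gabra5* are higher in every *Cyfip2*+/- library, while *Pvalb*, *Grin2c*, *Arc*, *Fosb*, *Csf1r*, *P2ry12* and *Bcas1* are lower in every one, and *Slc17a7* and *Mbp* overlap.

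Of 15 genes of the circadian clock 6 were lower and 1 higher at an unadjusted p below 0.05, with a median of -0.10. The higher one was *Npas2*, a paralog of *Clock* named after its values were seen, at 0.12 ± 0.05. *Dbp*, *Tef* and *Hlf* encode a family of bZIP factors under direct clock control. *Hlf* stood at 2030, 2191, 2381 and 2217 in *Cyfip2*+/- and at 3105, 3325, 2756 and 2392 in WT, without overlap though narrowly (-0.38 ± 0.09). *Tef* differed by -0.19 ± 0.06 and *Dbp* by -0.28 ± 0.09. *Per3*, a period gene, differed by -0.23 ± 0.07. Without both end libraries 1 gene was lower. The hour at which each brain was taken is not given per mouse, and its part was not tested.

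Genes of the excitatory postsynapse were more often lower than higher. Of 37 postsynaptic genes 12 were lower and 3 higher at an unadjusted p below 0.05, with a median of -0.06. The higher count is near the background of 9.05%. The NMDA receptor subunits differed in sign. *Grin2d*, a subunit of early development, stood at 2355, 2344, 1931 and 2018 in *Cyfip2*+/- and at 1465, 1384, 1712 and 1874 in WT (0.43 ± 0.10). *Grin2c*, a subunit that appears later, stood at 199, 238, 461 and 420 against 589, 726, 616 and 488 (-0.95 ± 0.24), and *Grin2a*, the main mature partner of GluN1, at 3266, 3050, 3981 and 3720 against 4403, 4863, 4062 and 3849 (-0.30 ± 0.09). The first 2 did not overlap, while in *Grin2a* WT replicate 4 lay below *Cyfip2*+/- replicate 3. The AMPA receptor subunit gene *Gria1* differed by -0.14 ± 0.04 without overlap, and the scaffold gene *Dlgap4* by 0.19 ± 0.05. The lower count was 9 to 15 as each library was left out and 2 without both end libraries. Of 18 GABA receptor and chloride transporter genes 1 was higher, which is near the background of 9.05%. This gene was *Gabra5*, a subunit of extrasynaptic receptors that is prominent before birth and soon after. It stood at 4742, 4567, 4163 and 4430 against 3610, 3395, 3897 and 4000 and did not overlap (0.27 ± 0.06). The 3 lower ones included *Gabra4*, of the mature receptor, at -0.22 ± 0.08, and the chloride importer *Slc12a2* at -0.13 ± 0.05. This count of 3 was 0 without *Cyfip2*+/- replicate 2 or WT replicate 2, 1 without *Cyfip2*+/- replicate 1 or WT replicate 1, 5 without *Cyfip2*+/- replicate 3, 6 without WT replicate 4 and 0 without both end libraries.

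Of 31 presynaptic genes 8 were lower and 3 higher at an unadjusted p below 0.05, the higher count near the background of 9.05%. *Doc2a* and *Doc2b*, paired calcium sensors of spontaneous release, were both on the higher side, at 3131, 2772, 2719 and 2933 against 2272, 2203, 2378 and 2525 for *Doc2a* (0.30 ± 0.06) and with 0.35 ± 0.11 for *Doc2b*. *Vamp1* and *Slc17a7*, given above, were on the lower side. The lower count was 4 without *Cyfip2*+/- replicate 1, *Cyfip2*+/- replicate 2 or WT replicate 2, 14 without WT replicate 3 and 1 without both end libraries. The higher count was 6 without WT replicate 3 and 1 without both end libraries. Of 35 voltage-gated channel genes 10 were lower and 1 higher. *Cacna2d3*, a calcium channel auxiliary subunit, stood at 2271, 2224, 2777 and 2552 in *Cyfip2*+/- and 3255, 3484, 2902 and 2825 in WT (-0.34 ± 0.08). The sodium channel subunit gene *Scn2b* differed by -0.34 ± 0.10, and *Scn4b*, of resurgent current, by -1.10 ± 0.37. *Scn4b* reached 958.5 in WT replicate 3, the library high in striatal genes, and 146 to 604.5 in the other 7. *Kcnc2*, the Kv3.2 channel gene of fast-spiking cells, stood at 1506, 1462, 1721 and 1633 against 1851, 1992, 1722 and 1804 (-0.22 ± 0.06). The lower count was 6 without both end libraries. The higher count was 3 without *Cyfip2*+/- replicate 2 or WT replicate 3, and 0 without WT replicate 1, WT replicate 2 or both end libraries.

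Growth and matrix genes held members of both signs. Of 59 axon guidance genes 13 were higher and 5 lower at an unadjusted p below 0.05, 6 and 5 of the list did not overlap, and the median was 0.04. The lower count at this p is near the background of 7.75%. *Plxna1* and *Plxna3*, receptors of semaphorins, were higher by 0.31 ± 0.07 and 0.44 ± 0.10. *Plxna3* stood at 3551, 3289, 2829 and 2945 in *Cyfip2*+/- and 2199, 1981, 2469 and 2696 in WT. The ephrin gene *Efna5* stood at 973, 935, 854 and 896 against 747, 808, 779 and 755 (0.24 ± 0.06), and the semaphorin gene *Sema4a* at 1246, 1146, 1235 and 1437 against 1712, 1759, 1487 and 1527 (-0.36 ± 0.08). All 4 were without overlap. The higher count was 7 without *Cyfip2*+/- replicate 1, 8 without WT replicate 2 and 7 without both. In the chondroitin sulfate list (23 tested, 3 higher, 5 lower, median -0.06), both polymerizing factors differed, in opposite directions. *Chpf2* stood at 1571, 1733, 1562 and 1825 against 2279, 2038, 2216 and 2175 (-0.38 ± 0.06), and *Chpf* at 2533, 2605, 2681 and 2632 against 2337, 2192, 2345 and 2462 (0.16 ± 0.05). Neither had overlap. *Tnr*, tenascin-R of perineuronal nets, differed by -0.23 ± 0.06, and *Has3*, a hyaluronan synthase, by 0.81 ± 0.21. The net components *Acan* (aggrecan) and *Hapln4* (a link protein) differed by -0.52 ± 0.18 and -1.25 ± 0.37, both with overlap. The higher count of this list was 5 without *Cyfip2*+/- replicate 3, and without both end libraries 2 were higher and 4 lower.

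Among 20 genes of the Arp2/3 complex and other actin regulators, downstream of the WAVE complex, 6 were higher and 2 lower at an unadjusted p below 0.05, with a median of 0.06, and 2 were higher without both end libraries. *Arpc2*, an Arp2/3 subunit, stood at 6733, 6843, 6456 and 6647 in *Cyfip2*+/- and 6153, 6030, 6296 and 6202 in WT (0.11 ± 0.04). *Dbn1*, the spine actin-binding protein drebrin, stood at 11458, 11722, 11411 and 10982 against 10050, 10338, 10800 and 10704 (0.12 ± 0.04). In both the groups were apart, at differences of a few percent. *Rac3*, the GTPase of developing neurons, overlapped by WT replicate 4 only, at 4100, 4151, 2904 and 3056 against 2309, 1914, 2517 and 2966 (0.55 ± 0.14). *Wasl*, the N-WASP gene, differed by -0.20 ± 0.06. Of 12 genes of FMRP and stress granule proteins, the partners of CYFIP2 in RNA binding, 1 was higher (*Pabpc1*, the poly(A)-binding protein, 0.12 ± 0.04) and 0 lower. These counts are near the background, and 0 were higher without both end libraries.

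Most cytosolic ribosomal protein genes had small positive differences. Of 80 tested, 39 were higher at an unadjusted p below 0.05 and 0 lower, 7 did not overlap, and the median was 0.12. The list ran from -0.88 to 0.24, with 2 members below 0. The lowest was *Rps27*, named after its values were seen, which ranged from 53.5 to 276 normalized counts in *Cyfip2*+/- and from 55.1 to 1709 in WT (-0.88 ± 0.96). *Rps16* stood at 2562, 2447, 2452 and 2511 in *Cyfip2*+/- and 2285, 2044, 2155 and 2073 in WT (0.22 ± 0.05), and *Rpl31* at 3909, 4329, 4017 and 4244 against 3608, 3775, 3423 and 3780 (0.18 ± 0.05). Both were without overlap. This count moved with single libraries. It was 17, 21, 22 and 24 without *Cyfip2*+/- replicate 2, WT replicate 2, *Cyfip2*+/- replicate 1 or WT replicate 1, 27 without WT replicate 3, 56 without WT replicate 4 and 4 without both end libraries. Of 86 nuclear genes of the respiratory chain 1 was higher and 8 lower, with a median of -0.02. The lower count is near the background of 7.75%. *Ndufa10* of complex I was among the lower ones (3554, 3050, 3202 and 3506 against 3811, 3830, 3747 and 4243, -0.23 ± 0.06). That count of 8 was 3 without *Cyfip2*+/- replicate 2 or WT replicate 2, 5 without *Cyfip2*+/- replicate 1 or WT replicate 1, 12 without WT replicate 3 and 2 without both end libraries. Of 13 mitochondrially encoded genes 1 was higher and 3 lower, with a median of -0.11, and 5 were lower without *Cyfip2*+/- replicate 4, 1 without WT replicate 1 and 2 without both end libraries. Of 23 cholesterol synthesis genes 7 were higher and 0 lower (median 0.08), led by *Fdps* (0.30 ± 0.09), *Mvd* (0.22 ± 0.07) and *Hmgcs1* (0.15 ± 0.05), and 4 were higher without *Cyfip2*+/- replicate 2 and 1 without both end libraries.

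The clustered protocadherins, cell-surface tags of single neurons, share exons within a cluster, so reads can be split between them and each value is uncertain. Of 57 tested, 6 were higher and 2 lower at an unadjusted p below 0.05, near the background. The higher count was 3 without *Cyfip2*+/- replicate 2, and without both end libraries 5 were higher and 3 lower. *Pcdha12* stood at 2037, 1541, 1689 and 1693 against 1070, 1241, 1389 and 1350 (0.46 ± 0.10), and *Pcdhgc5* at 2755, 2704, 4098 and 3689 against 4711, 5265, 4245 and 4294 (-0.50 ± 0.13). Around *Cyfip2* itself, 59 genes on chromosome 11 within 5 Mb gave 5 higher and 6 lower, again near the background. The higher count was 3 without *Cyfip2*+/- replicate 2, WT replicate 1 or WT replicate 2, and without both end libraries 1 was higher and 5 lower. *Nipal4* stood at 43.0, 50.2, 59.9 and 51.8 against 79.6, 121, 89.2 and 82.5 (-0.84 ± 0.18), and *Fndc9* at 149, 124, 145 and 142 against 206, 199, 178 and 185 (-0.46 ± 0.10). Both were without overlap. *Fndc9* differed in the same direction in the other comparisons, by -0.70 in the PWK 1 hippocampus, -0.61 in the PWK 7 cortex and -1.13 in the PWK 14 cortex.

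When all 48 libraries shared 1 estimate of the spread, the same 8 libraries gave 538 called genes of 18329 (2.94%), 220 higher (1.2%) and 318 lower (1.73%). That model pools the spread of adult tissue with that of PWK 1. It called 13 of the 23 immature neuron genes higher, and it called lower 6 of 32 microglial, 6 of 21 mature neuron, 6 of 35 voltage-gated channel, 3 of 22 oligodendrocyte and 1 of 20 immediate early genes. In the other direction these 6 lists gave 0. Other lists had calls in both directions. These were 2 higher and 5 lower of 37 postsynaptic genes, and 2 higher and 3 lower of 59 axon guidance genes. The chondroitin sulfate list and the clustered protocadherins each had 1 higher and 1 lower.

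The hippocampus of the same mice gave like medians. In the PWK 1 hippocampus 2 genes (0.0119%) were called, both lower, and 6.21% of genes were higher and 6.03% lower at an unadjusted p below 0.05. Immature neuron genes had a median of 0.23 there, with 19 of 23 higher, and oligodendrocyte genes a median of -0.75, with 17 of 22 lower. Medians were -0.21 for microglia, -0.12 for astrocytes, -0.17 for mature neurons and -0.18 for immediate early genes. No gene was called in limma's test of the genotype difference in the cortex against that in the hippocampus (0 of 17371), and the smallest adjusted p in the lists was 0.978. At an unadjusted p below 0.05 it had 835 genes (4.81%), 416 higher (2.39%) and 419 lower (2.41%). That fit treats the regions as independent. With the replicate block, which takes libraries of the same genotype and number as the same mouse, it called 0 genes and had 633 higher and 652 lower. A model over all 48 libraries called 2 genes. Of the genes with the smallest p in the cortex, the hippocampal values were near zero for *Chpf2* (-0.03), *P2rx7* (0.01), *Rasgrp3* (0.04) and *Lhx2* (0.04), and the difference between regions was not called for any of them.

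The later ages in the cortex were compared in other mice. At PWK 7, 3 genes (0.0178%) were called, 2 higher (0.0119%) and 1 lower (0.00593%), and 5.18% had an unadjusted p below 0.05, 2.34% higher and 2.84% lower. At PWK 14, 1 gene (0.00591%) was called, lower, and 7.05% had an unadjusted p below 0.05, 2.91% higher and 4.14% lower. Medians at PWK 7 and PWK 14 were 0.00 and 0.02 for immature neurons, 0.00 and 0.08 for microglia, 0.03 and 0.04 for astrocytes and -0.15 and 0.14 for oligodendrocytes. At an unadjusted p below 0.05, 12 of 22 oligodendrocyte genes were lower at PWK 7 and 1 at PWK 14. Mature neurons had medians of -0.04 and -0.12, with 3 and 5 of 21 genes lower. Immediate early genes were at -0.38 and -0.17. *Arc* differed by -0.86 and -0.33 at these ages. The next test uses the same PWK 1 libraries. The test of the genotype difference at PWK 7 against that at PWK 1 called 0 of 17491 genes (limma), with 1740 (9.95%) at an unadjusted p below 0.05, 4.57% higher and 5.38% lower, while a model over all 48 libraries called 2. At an unadjusted p below 0.05, 16 of 23 immature neuron genes had a lower difference at PWK 7 than at PWK 1. At the same threshold 13 of 32 microglial, 10 of 20 astrocyte, 9 of 22 oligodendrocyte and 7 of 21 mature neuron genes had a higher one, and 0 of 20 immediate early genes passed it in either direction. The smallest adjusted p over these lists was 0.277.

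Most of these lists differed with age in WT mice by more than with genotype. From PWK 1 to PWK 7 in the WT cortex 9934 of 16839 genes (59%) were called, 29% higher and 30% lower. Those WT PWK 1 libraries are the same ones as in the genotype comparison, so the 2 sets of values are not independent and are only set side by side. Median differences with age were -1.37 for immature neurons, where the genotype median was 0.28, and 1.54 for oligodendrocytes, where it was -0.53. They were 1.04 for immediate early genes, 0.52 for mature neurons, 0.38 for astrocytes and 0.31 for microglia, where the genotype medians were -0.30, -0.18, -0.14 and -0.20. For the ribosomal genes they were -0.27 and 0.12, and for clock genes 0.74 and -0.10. *Dpysl5* differed by -3.81 with age and by 0.58 with genotype, and *Pvalb* by 3.88 and -2.08. The signs were not opposite in every list. The interneuron list, which holds *Pvalb*, had medians of -0.23 with age and -0.06 with genotype. Oligodendrocyte precursors had -0.68 and -0.05. *Grin2d* and *Gabra5*, higher in *Cyfip2*+/-, differed with age by -1.65 and -1.24. Upper-layer genes had a median of -0.03 with age. The age of each pup within the week is not given in the labels, and the part of small differences in age in the genotype values was not tested.

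**Figure D5:**
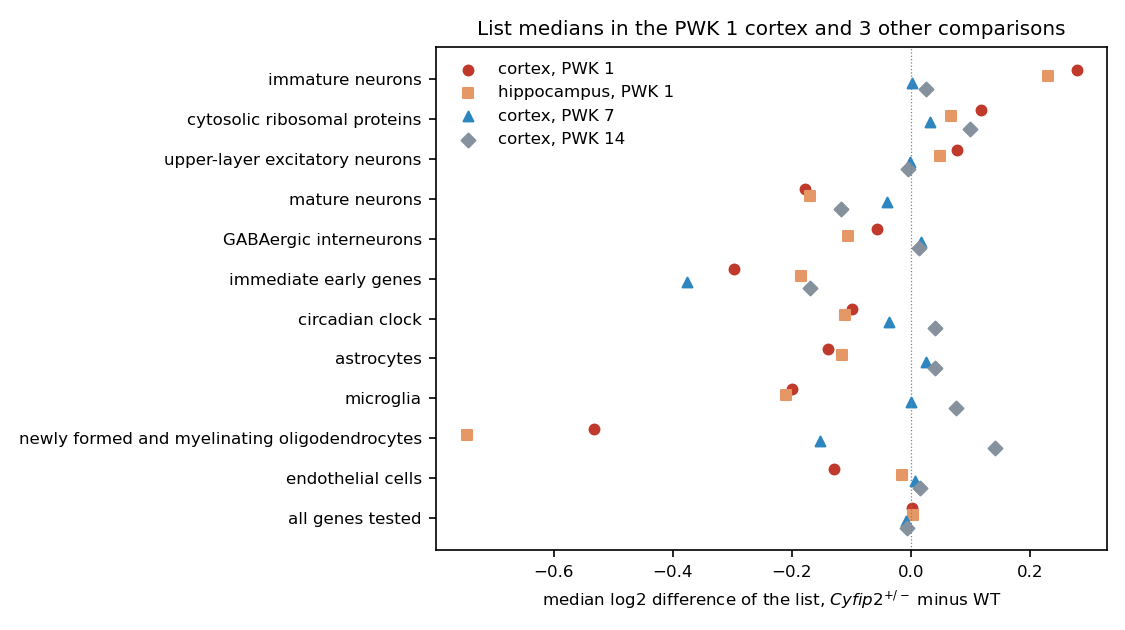
Median log2 difference between *Cyfip2*+/- and WT of 11 gene lists and of all genes tested, in the PWK 1 cortex (circles), PWK 1 hippocampus (squares), PWK 7 cortex (triangles) and PWK 14 cortex (diamonds). The 2 PWK 1 regions lie together for immature neurons (0.28 and 0.23) and microglia (-0.20 and -0.21), and the later ages lie near zero for both.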

How the data were processed

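Total RNA from frontal cortex was sequenced with stranded Illumina TruSeq libraries. Per the submitters' processing notes, the authors quantified reads with Salmon 0.11.2 and normalized gene counts with DESeq2 1.19.11 in R 3.6.0 on GRCm38, and the notes do not give every step. The deposited table holds these normalized counts, a linear signal that is not whole, for 18428 genes in 48 libraries, and 0 columns of no sample. A count test was therefore not used. Genes at 10 or more in at least 4 of the 8 libraries were fitted on log2(value + 1) with limma 3.58.1 (lmFit, eBayes with trend, R 4.3.3), which was tested on simulated data first, and adjusted by the Benjamini-Hochberg method. A fold change on this scale understates the change of low genes. Names and coordinates came from GENCODE vM21 for 18414 genes. The interaction tests fitted 16 libraries. Genes named are *Cyfip2* and the WAVE complex, the 10 protein-coding genes of smallest p in each direction without overlap and with a mean of at least 100, and from each of 33 lists the first 2 members and up to 4 of smallest p. *Dpysl3*, *Tubb2b*, *Mog*, *Scn4b*, *Hapln4*, *Egr1*, *Tmem119*, *P2ry13*, *Ddx3y*, *Myh7* and *Igfn1* were named after their values were seen. The members and lists were chosen with earlier results of these data known. Alternatives changed the scaling, filter, pseudocount, weights, libraries in the fit and replicate block. Depth was estimated from 3619 genes with 1 annotated transcript. Replicates are separate mice. Some genes that this rule names are not reported here, though counts and medians of lists include them.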

Additional observations from a re-analysis of the deposited data

Results flagged for a closer look

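In groups of 4 libraries, the highest or lowest value was set against the others, and 10 of 352 groups held a library whose gap to the rest took nearly the whole range of the group. Chance alone marks about 1 in 20 groups, which is more than were found, so single entries carry little weight. The highest library of the WT group stood apart for *Sox5* (2222 normalized counts, group median 2126), *Dpysl2* (7752, median 6814) and *Ndufa10* (4243, median 3820), and the lowest one for *Kdr* (1549, median 1802). *Abi2* was highest in *Cyfip2*+/- replicate 4 (8768, median 8101). Among the list means, relative to the 8 libraries on the log2 scale, WT replicate 3 stood at 0.90 for striatal neurons (median -0.06). WT replicate 4 stood at 0.0323 for actin regulators (median -0.04), and WT replicate 2 at 0.0801 for presynaptic proteins (median 0.01) and 0.10 for the glutamatergic postsynapse (median 0.03). *Cyfip2*+/- replicate 4 stood at -0.0100 for clustered protocadherins (median 0.07).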

How the results depend on the processing

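The count of called genes was 1 under the other scalings, filters, pseudocounts and weights, 538 with all 48 libraries in the model, 3 with the 16 PWK 1 libraries, 0 with the replicate block and 0 without both end libraries. It was 0 to 6 as each library was left out, 6 without *Cyfip2*+/- replicate 3, 2 without WT replicate 1, and 0 without *Cyfip2*+/- replicate 1, *Cyfip2*+/- replicate 2 or WT replicate 4. Counts at an unadjusted p below 0.05 without both end libraries were 649 higher and 579 lower, and 854 to 1501 genes were lower as each library was left out, 854 without WT replicate 2. Deviations of same-numbered libraries of the 2 genotypes correlated at -0.06, 0.00, 0.07 and -0.01. These values cannot exclude that the mice were paired by number, and the labels name no litter. With the replicate block the region interaction had 633 higher and 652 lower genes at an unadjusted p below 0.05, the age interaction had 1 called gene, and *Cyfip2* had an adjusted p of 0.332 (limma). The model of 48 libraries called 2 genes in each interaction, and leaving out single libraries gave 0 to 1 in the age interaction, 1 without *Cyfip2*+/- replicate 1 or 2. The *Cyfip2* level was 69.3% to 72.2% of WT as each library was left out, at an exact permutation p of 0.0571, the smallest that 4 against 3 allow. *Abi1* was at -0.0289 to 0.0584 as each library was left out, and below 0 without *Cyfip2*+/- replicate 3, *Cyfip2*+/- replicate 4 or WT replicate 4. The causes were not tested. The share of higher genes among those at an unadjusted p below 0.05 was 53.9%, 49.4% with median-of-ratios scaling and 48% with 48 libraries. With 4 mice a group and a median residual SD of 0.126, the fit limits what can be called.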

Other observations

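A pair of genes outside the lists, *Myh7* and *Igfn1*, is given here because their ranges did not overlap, and both were picked after their values were seen. *Myh7*, the slow myosin heavy chain gene, stood at 50.6, 62.2, 63.5 and 67.6 normalized counts in *Cyfip2*+/- and at 101, 127, 134 and 117 in WT, a difference of -0.96 ± 0.15 (limma, Benjamini-Hochberg adjusted p = 0.147). *Igfn1*, a muscle protein gene with immunoglobulin and fibronectin domains, stood at 3.35, 12.3, 8.22 and 12.2 against 35.5, 35.3, 28.3 and 41.4 (-1.97 ± 0.36). Both are low, and no library of the 2 groups overlapped. In the PWK 1 hippocampus *Myh7* differed by -0.48 and *Igfn1* by 0.46, and the difference between regions was not called for either. From PWK 1 to PWK 7 in the WT cortex they differed by 2.68 and 5.10.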
